A study of Mus musculus with 8 samples.

Results

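5730596B20Rik and 2700086A05Rik in the HoxA cluster, and 0610040B09Rik and Hoxb3os in the HoxB cluster, are 4 noncoding transcripts that run on the strand opposite to the Hox genes around them. They were 4 of the 26048 genes whose starts were examined, and they were chosen by name because their starts lost most H3K4me3 in menin-null PILECs. The values that chose them were the tags within 1 kb of each start in the H3K4me3 libraries of wt and menin-null PILECs. The ratio of those libraries is therefore given here as a description of the 4 starts and supports nothing by itself. The mESC genotype ratio and the input libraries were not used in the choice, although all 4 H3K4me3 libraries, summed as RPM, decided which annotated start of a gene was counted.

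The study asked which regions of the genome depend on menin for H3K4me3. H3K4me3 ChIP-Seq and input chromatin were each sequenced once from 4 kinds of mouse cells. The 8 libraries therefore hold no replicates. The wt mESCs were the line TC-1 and the menin-null mESCs the line 3.2N, in which Men1 is knocked out, both of the background 129S6/SvEvTac. Both lines were grown with LIF on irradiated fibroblast feeders and then freed of the feeders. PILECs, pancreatic islet-like endocrine cells, were made from each line in culture by way of embryoid bodies. Each genotype was 1 line and each PILEC library came from that line, so genotype and line cannot be told apart.

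H3K4me3, trimethylation of lysine 4 of histone H3, marks the nucleosomes around the starts of genes that are active or poised. Menin is a subunit of those MLL histone methyltransferase complexes that contain MLL1 or MLL2, which deposit this mark. Hox genes, the transcription factors that pattern the body axis, are the best known targets of these complexes. Between the Hox genes lie many antisense and intergenic noncoding transcripts, some of which are transcribed together with their coding neighbours.

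Tags are reads with a unique place in the mouse genome (mm9). Each tag was moved to the middle of a 250-bp fragment, and counts were scaled to a library of 1000000 tags (RPM). Below, wt precedes menin-null in every pair of values. The H3K4me3 libraries held 2432377 and 3517028 tags for mESCs and 18773635 and 17682677 for PILECs, and the inputs held 3744616 to 19016697. Thus 1 tag was worth 0.411 RPM in wt mESCs and 0.0533 RPM in wt PILECs. All intervals are 95% and exact, Poisson for a level and conditional binomial for a ratio. They cover counting error only, and a ratio compares 2 libraries, not 2 conditions.

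The labels were checked first. Over exons 3 to 8 of Men1, tags of the input numbered 17 for wt mESCs, 22 for wt PILECs and 0 for either menin-null library, which allows up to 3 tags in each. The 8 pluripotency markers carried 302 and 342 RPM of H3K4me3 in mESCs and 18.7 and 16.9 RPM in PILECs, with 0 of 8 called different between the genotypes in either cell type. The 12 islet markers summed to 51.3 and 55.4 RPM in PILECs against 70.7 and 74.8 RPM in the mESCs. Of these 12, the hormone genes Ins1, Ins2, Gcg, Iapp, Ppy and Sst and the transcription factor gene Pdx1 lay between 0.213 and 1.36 RPM in the PILECs, and Neurod1, Nkx2-2, Nkx6-1, Isl1 and Chga between 4.37 and 20.4 RPM. 0 of 12 were called different between the PILEC genotypes, and 1, Neurod1, was called lower in menin-null mESCs. In the PILECs the sums were 57.3 and 52.7 RPM for 8 fibroblast markers, 118 and 110 RPM for the 4 matched of the 6 neural markers listed, 5.17 and 4.92 RPM for 5 muscle markers, 12.6 and 11.7 RPM for 7 caudal and early mesoderm markers, and 3.20 and 2.32 RPM for 5 liver and yolk sac markers. Of these lists 1 fibroblast and 1 liver and yolk sac marker were called lower in menin-null PILECs. The part of any such cells in the results was not tested.

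The annotated place of each start is shown first, because all 4 starts lie inside or beside a Hox gene. 5730596B20Rik has 1 exon of 3354 bp on the plus strand of chromosome 6, from 52127497 to 52130850, within introns of Hoxa3 and of 2700086A05Rik. The mm9 gene annotation classes it as protein-coding, whereas RefSeq (GRCm38.p6) lists it as a long noncoding RNA. 2700086A05Rik, named Hoxaas3 in RefSeq, spans 39860 bp of the plus strand from 52125216 to 52165075, and its start lies in an intron of Hoxa3. The starts of the 2 HoxA transcripts are 2281 bp apart, so their windows of 1 kb to each side do not overlap.

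The HoxB pair starts within exons of coding genes. 0610040B09Rik, named Hoxb5os in RefSeq, lies on the minus strand of chromosome 11 from 96152338 to 96168224, and its start at 96166395 falls in the coding part of the second exon of Hoxb5. Hoxb3os lies on the minus strand from 96206795 to 96216005, and its start at 96216005 falls in an untranslated part of an exon of Hoxb2. The starts of this pair are 49610 bp apart. None of the 4 starts has a start of another gene within 2 kb.

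The sequence before the HoxA starts is shown to make their CpG content visible, since promoters with H3K4me3 are often rich in CpG. Capitals mark each CpG, the letters read 5' to 3' on the strand of the transcript, and the stretches come from the mm9 genome. They cover chr6:52127247-52127496 on the plus strand, the 250 bases before the start of 5730596B20Rik, and chr6:52124966-52125265 on the plus strand, the 250 bases before and 50 from the start of 2700086A05Rik on.
5730596B20Rik: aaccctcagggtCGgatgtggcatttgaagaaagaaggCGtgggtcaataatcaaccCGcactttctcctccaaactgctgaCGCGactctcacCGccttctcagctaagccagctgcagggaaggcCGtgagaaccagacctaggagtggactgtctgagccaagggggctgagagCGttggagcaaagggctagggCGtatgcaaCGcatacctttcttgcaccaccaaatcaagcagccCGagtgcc
2700086A05Rik: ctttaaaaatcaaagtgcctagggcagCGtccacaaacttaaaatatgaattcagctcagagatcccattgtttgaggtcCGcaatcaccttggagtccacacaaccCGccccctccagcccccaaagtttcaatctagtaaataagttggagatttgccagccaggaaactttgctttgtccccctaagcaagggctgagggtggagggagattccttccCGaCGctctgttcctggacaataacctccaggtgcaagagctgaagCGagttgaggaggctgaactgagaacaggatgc
Over the full 300 bases from 250 before the start, 5730596B20Rik had 15 CpG, 2700086A05Rik 6, 0610040B09Rik 14 and Hoxb3os 16, against a median of 12 over 26042 promoters and of 16 over 39 Hox genes. The observed over expected ratio of CpG in these bases was 0.596, 0.321, 0.586 and 0.673 in the same order. Within 1 kb of the start the 4 had 63, 96, 60 and 53 CpG, where the median was 59 over all promoters and 89 over the Hox genes. All but 2700086A05Rik were therefore near the middle of all promoters in CpG and below the Hox genes' median within 1 kb. 2700086A05Rik was low in the 300 bases, where 33.5% of promoters had fewer CpG, and high within 1 kb, where 73.0% of starts had fewer.

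Short motifs were searched on both strands of the 300 bases. At 0610040B09Rik all 300 were exon sequence of a coding gene, 103 coding and 197 untranslated. At Hoxb3os all 300 were untranslated exon sequence. The CpG counts over 300 bases for the HoxB pair come from the same exon sequence. A GC box (GGGCGG) was found in 2700086A05Rik and 0610040B09Rik and in 44.0% of all promoters, and a CCAAT box (CCAAT) in 0610040B09Rik and Hoxb3os and in 35.6% of all. The Meis half-site (TGACAG), the core of the motif of a family of Hox cofactors, was found in 0610040B09Rik, with its first base 171 bases before the start, and in Hoxb3os, 16 bases before the start, and in 17.6% of all promoters and 5 of 39 Hox genes. An E-box (CANNTG) was found in all but 0610040B09Rik and in 68.6% of all promoters. No TATA box (TATAAA), Pbx-Hox site (TGATNNAT), nuclear receptor half-site (AGGTCA) or Ets motif (CGGAAG) was found in any of the 4, and these occur in 12.1%, 7.50%, 13.8% and 20.1% of all promoters. CG alone was in all 4 and is in 95.3% of all promoters, and it overlaps the GC box and the Ets motif, which contain it.

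In the 1 kb to each side of the start of 5730596B20Rik, H3K4me3 tags numbered 1 and 7 in mESCs and 128 and 10 in PILECs, which is 0.411 and 1.99 RPM and then 6.82 and 0.566 RPM. Its input held 4 and 4 tags in mESCs and 15 and 20 in PILECs, or 0.942, 1.07, 0.789 and 1.10 RPM. H3K4me3 was thus highest in wt PILECs, where it was 8.64 times the input, and in the other 3 libraries the interval of its ratio to input included 1. The menin-null PILEC level was 8.29% of the wt PILEC level and 0.512 times its own input, a log2 ratio of RPM of -3.59 (-4.69 to -2.67), the lowest ratio of the 4.

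In the 1 kb to each side of the start of 2700086A05Rik, H3K4me3 tags numbered 8 and 27 in mESCs and 82 and 10 in PILECs, which is 3.29 and 7.68 RPM and then 4.37 and 0.566 RPM. The input held 7 and 7 tags in the mESCs and 21 and 15 in the PILECs, or 1.65, 1.87, 1.10 and 0.828 RPM. It was the one transcript of the 4 whose highest level was in a mESC library, that of menin-null mESCs, at 4.11 times the input. In wt PILECs it was 3.96 times the input, the smallest such value of the 4. The menin-null PILEC level was 7.72-fold lower, a log2 ratio of -2.95 (-4.06 to -1.998).

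In the 1 kb to each side of the start of 0610040B09Rik, H3K4me3 tags numbered 5 and 3 in mESCs and 161 and 22 in PILECs, which is 2.06 and 0.853 RPM and then 8.58 and 1.24 RPM. The input held 6 and 7 tags in the mESCs and 23 and 26 in the PILECs, or 1.41, 1.87, 1.21 and 1.43 RPM. H3K4me3 stood above the input beyond counting error in wt PILECs alone, at 7.09 times. The menin-null level was 14.5% of the wt level, a log2 ratio of -2.79 (-3.50 to -2.14).

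In the 1 kb to each side of the start of Hoxb3os, H3K4me3 tags numbered 9 and 4 in mESCs and 200 and 24 in PILECs, which is 3.70 and 1.14 RPM and then 10.7 and 1.36 RPM. The input held 4 and 4 tags in the mESCs and 30 and 19 in the PILECs, or 0.942, 1.07, 1.58 and 1.05 RPM. It had the highest level of the 4 in wt PILECs, 6.75 times the input, and in wt mESCs its level was 3.93 times the input with a log2 interval of 0.13 to 4.13. In menin-null PILECs 12.7% was left, a log2 ratio of -2.97 (-3.65 to -2.36).

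**Figure D1:**
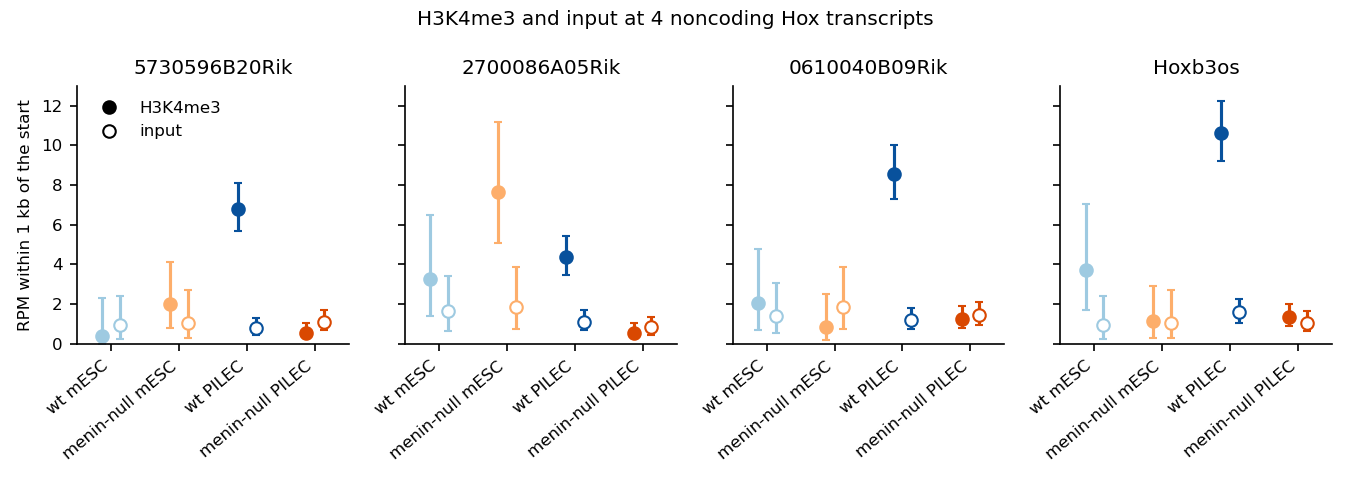
H3K4me3 (filled) and input (open) levels within 1 kb of each start, in RPM, in the 4 kinds of cells, with 95% Poisson intervals and 1 library per point. In all 4 panels the menin-null PILEC level is below the wt PILEC level and near its input, and 2700086A05Rik alone has its highest point, 7.68 RPM, in menin-null mESCs.

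Summed over the 4 starts, H3K4me3 of PILECs was 571 tags (30.4 RPM) with menin and 66 tags (3.73 RPM) without, a log2 ratio of -3.03 (-3.42 to -2.66). The 66 tags were 0.845 times the input of the same cells, with a log2 interval of -0.73 to 0.25, so no H3K4me3 above input was detectable there at this depth. With the input of the 5 kb to each side subtracted, per length, the menin-null PILECs were left with -0.406 RPM at 5730596B20Rik, -0.384 at 2700086A05Rik, 0.0627 at 0610040B09Rik and 0.198 at Hoxb3os, where 3 tags are worth 0.170 RPM. A ratio rests on the floor of 3 tags where such a remainder was negative, and on a remainder of few tags where it was not. At Hoxb3os the remainder was above that floor. Ratios of these remainders between the PILEC genotypes are not given for single transcripts. In wt PILECs the 571 tags were 6.499 times the input, where the median start over 24603 genes was 11.6 times its input and 33.6% of starts were below it. Over all 24610 genes with enough tags, the median start in menin-null PILECs was 9.84 times its input, and 32.0% of starts were below it.

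A start was called when 2 libraries held at least 10 tags between them, the ratio with 1 tag added was at least 2-fold and its interval excluded 1. All 4 starts were called lower in menin-null PILECs and 0 of 4 higher, where 1.31% of 23886 starts tested were called lower and 1.29% higher. The choice of the 4 fixes that count. With the median ratio of all starts set to 0, 244 were called lower and 380 higher, and when scaled by tags near gene starts 217 and 407, with all 4 transcripts still called lower. On the scale with 1 tag added, their log2 ratios were -3.47, -2.83, -2.73 and -2.92, in the order of the text above, and the median of all genes was -0.06. Ordered from the lowest ratio of all genes tested, 5730596B20Rik was 2nd, Hoxb3os 6th, 2700086A05Rik 7th and 0610040B09Rik 10th, and Hoxb8, a coding gene of trunk patterning, was 1st at -3.50.

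The choice had no fixed threshold. Nearest to the 4 among noncoding genes of the Hox clusters that were not chosen stood Mir196a-2 of HoxC at -3.04, lower than 3 of the 4, and Mir10a of HoxB at -2.58, higher than all 4. Outside the Hox clusters the noncoding genes Gm15178, at -3.001 from 16 and 1 tags, and 1810020O05Rik, at -2.79 from 21 and 2 tags, were as low.

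**Figure D2:**
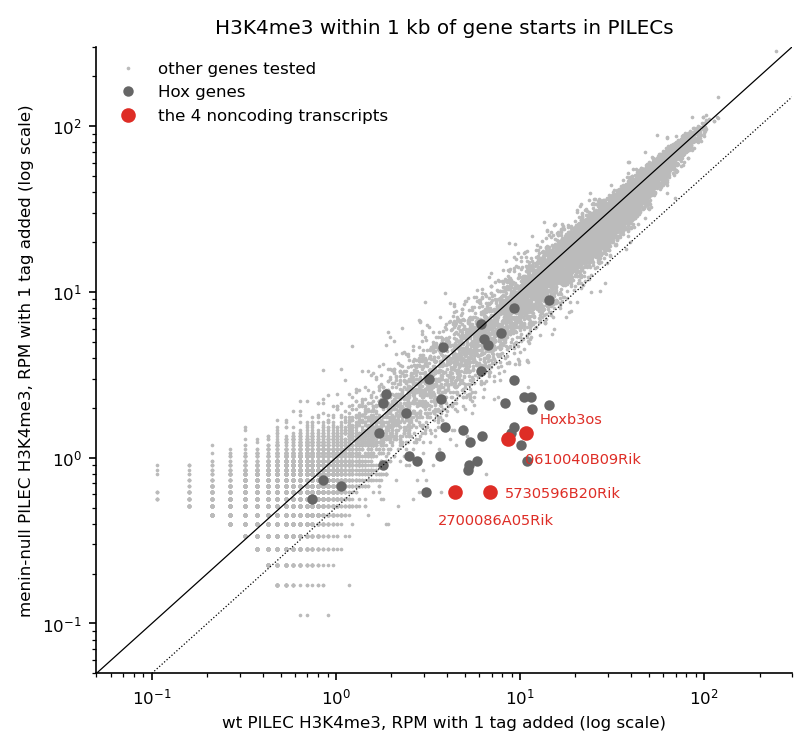
H3K4me3 within 1 kb of the start in wt PILECs (x) and menin-null PILECs (y), in RPM with 1 tag added on log axes, for the 23886 genes tested, with 1 library per axis. The solid line marks equal levels and the dotted line a 2-fold lower level, and the 4 noncoding transcripts lie far below both, beside the lowest Hox genes.

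Around the HoxA starts, the profile was drawn in windows of 200 bp out to 5 kb. At 5730596B20Rik the highest window of wt PILECs was the one just before the start, from -200 to 0 bp, with 28 tags (1.49 RPM), and the tags split into 72 before and 56 after the start. At 2700086A05Rik the first 200 bp after the start held 19 tags, a local maximum, but its highest window, with 25 tags, lay 2000 to 2200 bp downstream, beside the start of 5730596B20Rik. In wt PILECs windows of at least 0.5 RPM, joined over gaps of up to 400 bp, formed a domain of 3600 bp. It ran from 52126201 to 52129800 and covered the start of 5730596B20Rik and not that of 2700086A05Rik. Windows at the start of 2700086A05Rik reached 0.5 RPM too. The 200 bp before that start held 14 tags (0.746 RPM). The windows from 0 to 200 and 200 to 400 bp held 19 and 15 tags (1.01 and 0.799 RPM). The domain of 3600 bp therefore does not show the start of 2700086A05Rik to be free of the mark. In menin-null PILECs no such domain lay within 1 kb of either start, and 2 of 50 windows around each reached 0.5 RPM.

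Around the HoxB starts, the mark of wt PILECs was spread over the host genes. 0610040B09Rik lay in a domain of 5600 bp from 96164801 to 96170400, and its start stood on no peak of its own. The highest window within 5 kb, with 50 tags, was 4800 to 5000 bp downstream, beyond that domain. Hoxb3os lay near the end of a domain of 3600 bp from 96213201 to 96216800, and its highest window, with 65 tags (3.46 RPM), was 1600 to 1800 bp downstream, between its start and that of Hoxb2. The first 200 bp of Hoxb3os held 9 tags in menin-null PILECs, as many as any window there. Within 5 kb of that start 3 windows of at least 0.5 RPM were left, 1 of them from 96215801 to 96216000, just downstream of it. No window within 5 kb of 0610040B09Rik reached that level. Tags do not carry the strand of transcription, so H3K4me3 of the antisense start and of the Hoxb5 or Hoxb2 gene on the other strand cannot be told apart.

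**Figure D3:**
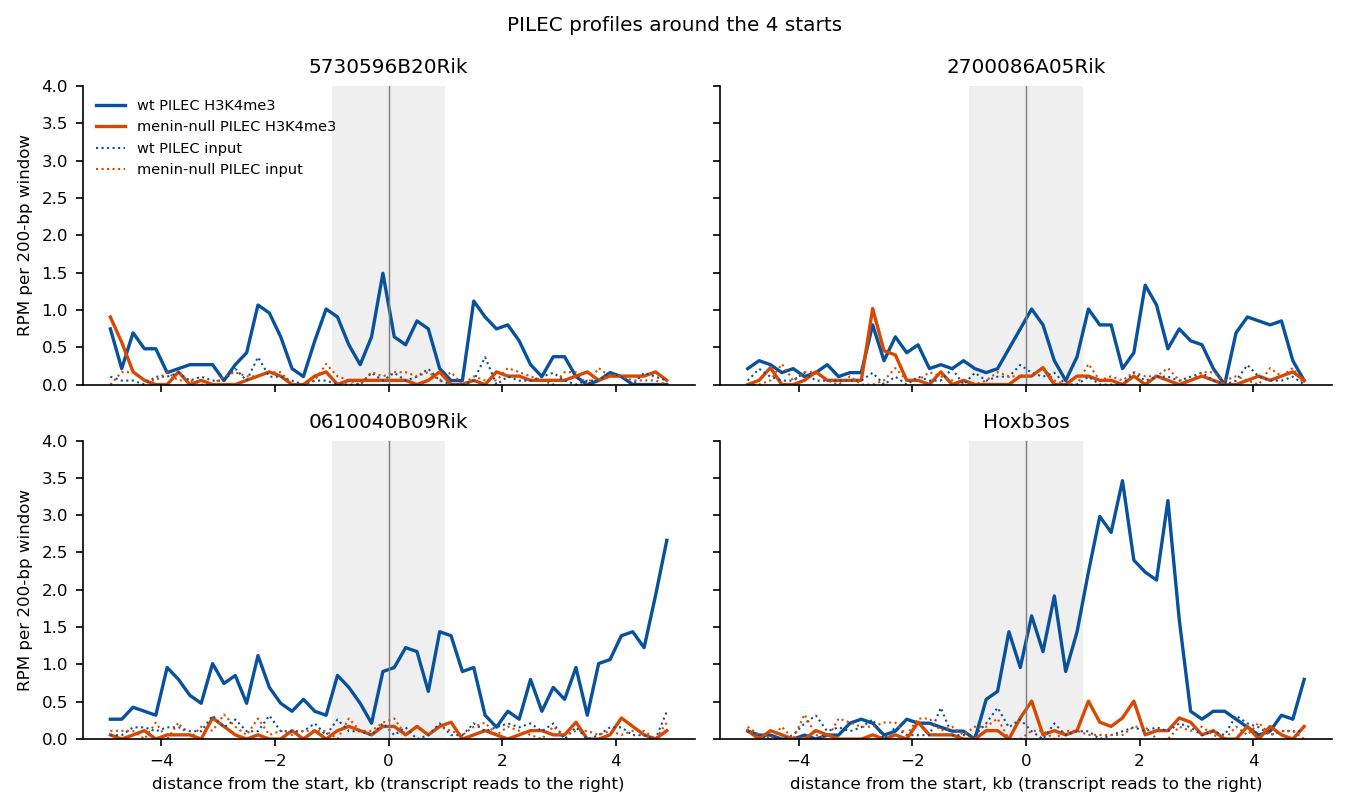
RPM per 200-bp window from 5 kb upstream to 5 kb downstream of each start in PILECs, for H3K4me3 (solid) and input (dotted) of wt (blue) and menin-null (orange) cells, with 1 library per line and the counted window of 1 kb to each side in grey. The wt H3K4me3 line stands above the menin-null one across most of the grey window in all 4 panels, and at Hoxb3os it peaks downstream, at 3.46 RPM.

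Beyond the counted 1 kb, wt PILECs were higher than menin-null PILECs in 30 of 40 windows around 5730596B20Rik, 35 around 2700086A05Rik, 40 around 0610040B09Rik and 31 around Hoxb3os. These windows come from the same libraries as the choice, and those of the HoxA pair take in each other's start. Over the whole transcribed span, which begins in the counted window, the level in wt and menin-null PILECs was 2.53 and 0.320 RPM per kb for 5730596B20Rik, 1.66 and 0.585 for 2700086A05Rik, 5.06 and 0.570 for 0610040B09Rik and 4.25 and 0.651 for Hoxb3os. The span of 2700086A05Rik, the longest, crosses several Hox genes and kept the largest share.

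The starts above are the strongest of each gene, and most other annotated starts were lower in wt PILECs. 2700086A05Rik has a start at 52151123 with 20 tags in wt and 13 in menin-null PILECs, a log2 ratio of -0.54 (-1.66 to 0.54), where the input held 16 and 24 tags. 0610040B09Rik has a further start at 96168224 with 112 and 9 tags, a log2 ratio of -3.55 (-4.72 to -2.57). Hoxb3os has one at 96209237 with 35 and 13 tags, a log2 ratio of -1.34 (-2.38 to -0.39). The windows of both starts of 0610040B09Rik overlap and come from the libraries of the choice, so its further start is not a separate observation. The far start of 2700086A05Rik had few tags in either library.

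Beside the HoxA transcripts, the nearest Hox genes were not called. Hoxa3, a regulator of pharyngeal arch development, had 16 and 28 tags in mESCs and 69 and 39 in PILECs, a PILEC log2 ratio of -0.74 (-1.34 to -0.15). Hoxa4, a gene of cervical patterning, had 59 and 91 tags in mESCs and 173 and 141 in PILECs, a PILEC log2 ratio of -0.21 (-0.54 to 0.12). The intervals of 5730596B20Rik and 2700086A05Rik lay wholly below both of these, which follows in part from their choice as starts with a large loss.

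Beside the HoxB transcripts, the neighbours were called lower as well. Hoxb5, which hosts the start of 0610040B09Rik, had 4 and 2 tags in mESCs and 98 and 15 in PILECs, a PILEC log2 ratio of -2.62 (-3.51 to -1.83), and Hoxb4, a gene best known from blood stem cells, had 0 and 3, then 57 and 10 tags and -2.42 (-3.56 to -1.44). Hoxb2, a hindbrain regulator that hosts the start of Hoxb3os, had 1 and 5, then 188 and 20 tags and -3.15 (-3.89 to -2.48). Hoxb1, a further hindbrain regulator, had 8 and 10, then 46 and 17 tags and -1.35 (-2.25 to -0.52). The intervals of 0610040B09Rik and Hoxb3os overlapped those of Hoxb5, Hoxb4 and Hoxb2, and that of Hoxb3os lay below that of Hoxb1.

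**Figure D4:**
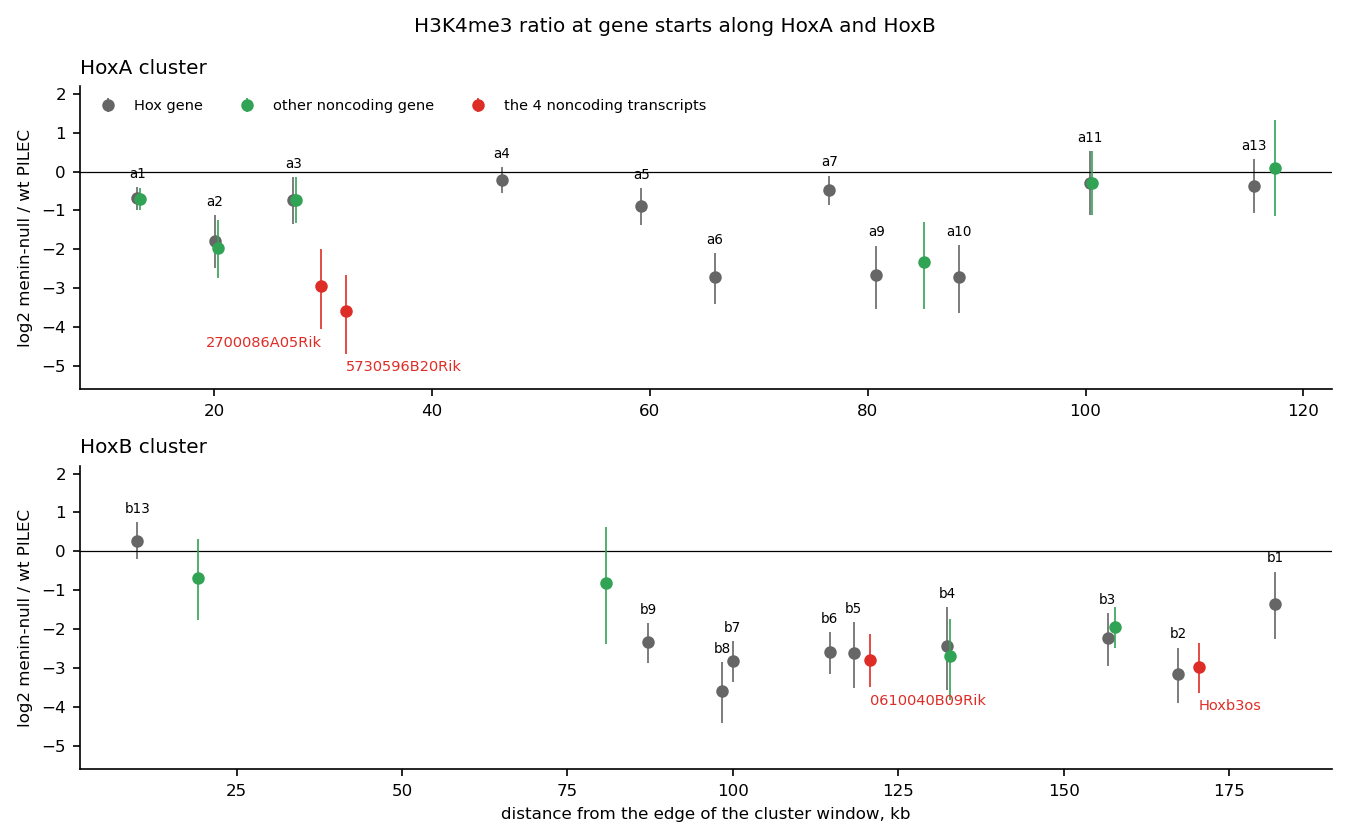
Log2 ratio of menin-null over wt PILECs at the starts tested of Hox genes and noncoding genes along HoxA (top) and HoxB (bottom), with 95% counting intervals, against the distance in kb from the edge of a window reaching 10 kb beyond the outermost Hox genes. Other protein-coding genes, such as Gm53 in HoxB, are not drawn. The 2 HoxA transcripts (red) lie below Hoxa3 and Hoxa4 on their sides, whereas the HoxB transcripts lie level with Hoxb5, Hoxb4 and Hoxb2.

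Of the 39 Hox genes, 22 were called lower in menin-null PILECs, 0 higher and 17 neither, with a median log2 ratio of -1.35. By cluster, 4 of 11 were called lower in HoxA, 9 of 10 in HoxB, 4 of 9 in HoxC and 5 of 9 in HoxD. The study itself singled out Hox genes in these samples, so the list is no independent evidence of its direction. Of 19 further noncoding genes that start within the Hox clusters and had at least 20 tags in the PILECs, 8 were called lower and 0 higher, and their median was -0.71. The windows of 13 of the 19 overlap that of a Hox gene, 7 of the 8 called among them.

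The 8 were Mir10a, Gm11536, Gm20398, Mir196a-2, Gm20440, 1700109F18Rik, 5730446D14Rik and RP23-329P9.11. Mir196a-2, the 1 called without such an overlap, is an annotated processed transcript under the symbol of a miRNA, with 2 and 6 tags in mESCs and 121 and 13 in PILECs. Among all lincRNA and processed-transcript genes of the annotation, 2.37% of 3590 tested were called lower in menin-null PILECs and 2.01% higher.

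The genes most like the 4 were sought by the root mean square difference of log2(RPM + 0.1) from their mean over the 4 H3K4me3 libraries. The 6 nearest were Hoxc8 at 0.44, Hoxb3 at 0.49, 5730446D14Rik at 0.56, Mir196a-2 at 0.56, Nap1l5 at 0.59 and Hoxc9 at 0.59. Hoxc8, a gene of thoracic patterning, had 3 and 9 tags in mESCs and 99 and 21 in PILECs. Of the 6, Nap1l5, an imprinted gene, is the only one outside the Hox clusters. The 4 themselves lay 1.00, 1.12, 0.63 and 0.74 from their mean, so each stood farther from it than these 6 genes did.

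In mESCs, whose genotype ratio the choice did not use, the genotypes were compared at the same starts. Over the 4 starts together 23 tags (9.46 RPM) were counted with menin and 41 (11.7 RPM) without, a log2 ratio of 0.30 (-0.47 to 1.11), so no difference was detectable at this depth. The same starts were 1.91 times their input in wt mESCs and 1.98 times in menin-null mESCs, whereas the median gene was 10.7 and 14.0 times its input. Of the 41 menin-null tags 27 lay at 2700086A05Rik. It alone of the 4 stood above its input beyond counting error in menin-null mESCs. The pooled menin-null mESC values therefore lean on that start. Only 2700086A05Rik and Hoxb3os reached the 10 tags needed for a call. Of these 2, 1 was called higher and 0 lower, where 0.783% of 16102 starts tested were called higher and 0.826% lower. With the median ratio of all starts set to 0, 38 starts were called higher and 312 lower, and of these 2 transcripts 2700086A05Rik was not called and Hoxb3os was called lower.

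The start called higher was 2700086A05Rik, 2.33 times the wt level, with a log2 ratio of 1.22 (0.04 to 2.57). Of its 27 tags in menin-null mESCs all lay downstream of the start, 16 of them 400 to 600 bp away, where wt mESCs had 2 tags and the inputs 0 in wt and 2 in menin-null mESCs. Under 3 of 8 other ways of counting or scaling it was not called, among them 1 tag per position and strand, with 8 and 25 tags, and scaling that set the median start, at 0.21, to 0. Among the 8, the 5'-most start is the start already used and could change nothing. The call therefore rests on few tags and on the scaling.

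The other 3 had log2 ratios in mESCs of 2.28 (-0.69 to 7.77) for 5730596B20Rik, -1.27 (-3.96 to 1.09) for 0610040B09Rik and -1.70 (-3.85 to 0.14) for Hoxb3os. All 3 intervals included 0. They still hold a 2-fold gain for 5730596B20Rik, a 2-fold loss for Hoxb3os and either for 0610040B09Rik. Under other ways of counting or scaling, 5730596B20Rik was called higher in 1 of 8 and Hoxb3os lower in 2 of 8. The call of 5730596B20Rik came within 2 kb of the start, from 8 wt and 36 menin-null tags. In the 200-bp windows from 2000 to 1400 bp upstream, wt mESCs had 2, 2 and 3 tags and menin-null mESCs 10, 11 and 5. That stretch lies inside the counted window of 2700086A05Rik.

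Between the stages, wt PILECs were compared with wt mESCs and menin-null PILECs with menin-null mESCs, and each comparison shares a library with the choice. From wt mESCs to wt PILECs the 4 starts together rose from 23 to 571 tags, or 3.22 times in RPM, a log2 ratio of 1.69 (1.09 to 2.35). 3 of 4 were called higher, where 5.05% of all starts tested were: 5730596B20Rik at 4.05 (1.55 to 9.37), 0610040B09Rik at 2.06 (0.81 to 3.70) and Hoxb3os at 1.53 (0.57 to 2.68). 2700086A05Rik, at 0.41 (-0.64 to 1.67), was not. These calls depend on the window: within 500 bp of the start 0610040B09Rik and Hoxb3os were not called, and 2700086A05Rik was called higher within 500 bp, with 2 and 63 tags in mESCs and PILECs, and within 2 kb, with 9 and 173 tags.

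In menin-null cells the 4 starts together went from 41 tags in mESCs to 66 in PILECs, which is 3.12-fold lower in RPM, a log2 ratio of -1.64 (-2.23 to -1.04). Of the 41 tags 27 lay at 2700086A05Rik, which held 10 in PILECs, so this pooled ratio leans on that start. 2 of 4 were called lower, both in HoxA, where 18.4% of all starts tested were: 5730596B20Rik at -1.82 (-3.36 to -0.19) and 2700086A05Rik at -3.76 (-4.97 to -2.67). 0610040B09Rik, at 0.54 (-1.19 to 2.93), and Hoxb3os, at 0.26 (-1.29 to 2.24), were not called, and the sign of both turned under other ways of counting. The median of all genes in this comparison was -0.33, and with it set to 0, or with scaling by tags near gene starts, 5730596B20Rik was not called either. In both menin-null libraries the ratio to input had an interval that included 1 for the HoxB transcripts and for 5730596B20Rik. The drop called at 5730596B20Rik thus lay between levels not told apart from input.

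**Figure D5:**
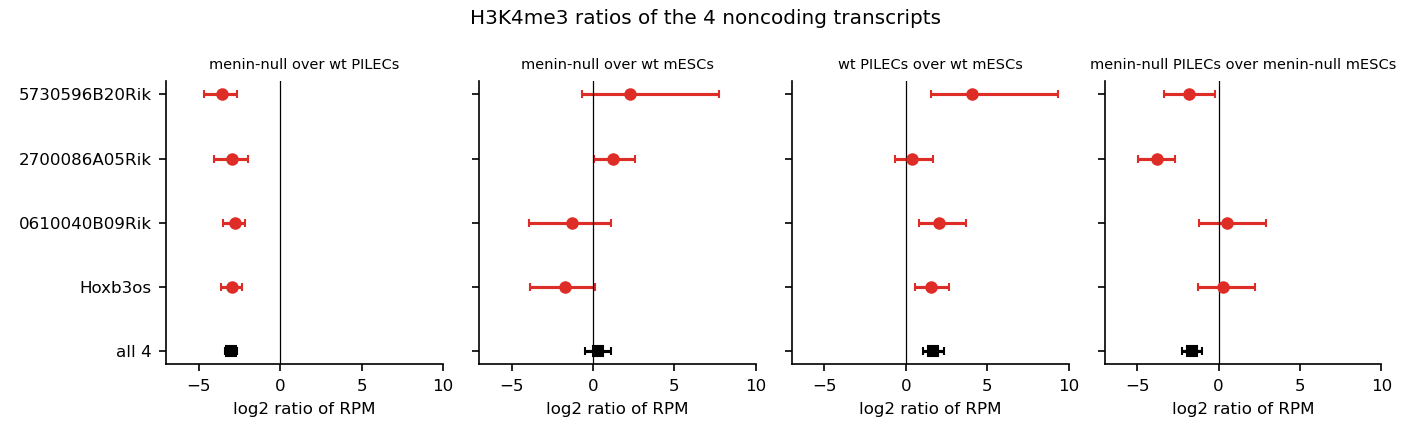
Log2 ratio of RPM within 1 kb of the start, with 95% counting intervals, for each transcript (red) and for the 4 together (black), in 4 comparisons with 1 library on each side. The first panel uses the libraries that chose the transcripts, with all 5 intervals below 0, and in the mESC panel only 2700086A05Rik lies above 0 with its interval.

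The input was compared in the same way. Over the 4 windows of 1 kb, the PILEC inputs held 89 and 80 tags, a log2 ratio of -0.08 (-0.54 to 0.37), and the mESC inputs 21 and 22 tags, a log2 ratio of 0.25 (-0.68 to 1.18). Out to 50 kb around each start the PILEC input ratio was -0.11 (-0.24 to 0.03) for 5730596B20Rik, -0.09 (-0.22 to 0.05) for 2700086A05Rik, -0.12 (-0.24 to 0.00) for 0610040B09Rik and -0.20 (-0.32 to -0.08) for Hoxb3os. The part of these input differences in the H3K4me3 ratios was not tested.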

How the data were processed

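Tags are 36 bp long and lie on mm9, per the labels. The authors' filter, per their methods, asked for 1 genomic place and 2 mismatches at most. The deposited files list 1 tag per line, with its position and an alignment score, as text. The aligner is not given in the sources used here, and the score the authors deposited, which is not named, was not used. Between 1.04% and 1.81% of tags per library list more than 2 mismatches and were kept. Tags at a used position and strand, 1.77% to 11.5%, were kept too. In the mESC H3K4me3 libraries they were 11.4% of wt and 4.17% of menin-null tags. The part of this difference in the mESC ratios was not tested.

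Tags within 1 kb of each of 75482 annotated starts (GENCODE for NCBIM37, which is mm9) were counted with scipy 1.17.1, pandas 2.3.3 and numpy 2.4.6 under Python 3.11.15, and plotted with matplotlib 3.10.9. The start used for a gene was that with the highest RPM summed over the 4 H3K4me3 libraries. The rules for intervals and calls were tested on simulated counts, at starts with more tags than any of the 4 transcripts held in mESCs. The counting of tags itself was not tested so. With 1 library per condition, no test of a condition was made. The members, lists and rules were chosen with earlier results of these data known. Genes named were the 4 transcripts, the nearest Hox gene on each side, Men1, noncoding genes of the clusters and the 6 genes most alike, with the 12 islet markers to check the label. Gm15178, 1810020O05Rik and Hoxb8 were named after their values were seen. The expression arrays of the study were not used here.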

Additional observations from a re-analysis of the deposited data

Results flagged for a closer look

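The ratio of menin-null to wt cells had opposite signs in the 2 stages for both HoxA transcripts. At 2700086A05Rik the log2 ratio was 1.22 in mESCs and -2.95 in PILECs, and at 5730596B20Rik it was 2.28 in mESCs, from 7 menin-null tags and 1 wt tag, and -3.59 in PILECs. With 1 library on each side the difference between the stages was not tested, and the PILEC ratios are those by which the transcripts were chosen. The interval of the 5730596B20Rik ratio in mESCs, -0.69 to 7.77, includes 0. With input subtracted that ratio was -0.51, set by the floor of 3 tags, 1.23 RPM, put in place of a wt remainder below 0. The sign of that value therefore does not show a lower level in menin-null mESCs. The 2700086A05Rik call in mESCs was lost in 3 of 8 other ways of counting or scaling.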

How the results depend on the processing

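Each ratio was recomputed under 11 alternatives, 2 of which (tags with at most 2 mismatches, and tags nearer to the start of another gene left out) were chosen after seeing the data. The pooled PILEC ratio stayed between -2.92 and -3.21 except with input subtracted, which left menin-null PILECs under input, so that the value, -7.27, is set by the floor of 3 tags put in their place, as is that of -5.28 for menin-null PILECs over menin-null mESCs. Input subtraction gave 3.05 for wt PILECs over wt mESCs. The pooled mESC ratio ranged from 0.06 to 1.07. Of 44 ratios of single transcripts in each comparison, 39 in menin-null over wt PILECs, 43 in menin-null over wt mESCs, 42 in wt PILECs over wt mESCs and 42 in menin-null PILECs over menin-null mESCs stayed within their counting interval. Some of them could not move. Leaving out tags nearer to another gene's start changed no ratio, and the 5'-most start was the start already used for all but 0610040B09Rik. No called ratio reversed. Input subtraction, which put single transcripts at or near the floor, turned the sign of some uncalled ratios. In mESCs it gave 2.31 for 0610040B09Rik and -0.51 for 5730596B20Rik. For menin-null PILECs over menin-null mESCs it gave -3.77 for 0610040B09Rik and -0.51 for Hoxb3os. The menin-null mESC remainder of 0610040B09Rik and the wt mESC remainder of 5730596B20Rik were below 0 and replaced by the floor of 3 tags. The signs of 2.31, of -3.77 and of the -0.51 for 5730596B20Rik come from that floor and run against the remainders. With input subtraction left aside, the mESC ratio of 0610040B09Rik ranged from -2.12 to 0.34. The ratios of menin-null PILECs over menin-null mESCs ranged from -0.70 to 0.99 for 0610040B09Rik and from -0.92 to 0.61 for Hoxb3os. Within 500 bp, 0610040B09Rik had 0 tags in menin-null mESCs, entered as the floor of 3 tags. Both ranges of 0610040B09Rik are therefore too narrow. Starts called lower in menin-null PILECs numbered 175 with at least 50 tags and 897 at 1.5-fold, where 36 and 435 were called higher. Within 500 bp, 414 were called lower and 193 higher. In mESCs 312 were called lower with the median set to 0, 333 when scaled by tags near gene starts, 21 with at least 50 tags and 274 at 1.5-fold. Those called higher numbered 38, 30, 76 and 1364 under the same alternatives, and 200 within 500 bp (the cause was not tested), so both scalings widen the split of mESC calls towards lower, and the 50-tag minimum, the 1.5-fold threshold and the 500-bp window, with 143 lower, turn it towards higher. The mESC libraries, which hold fewer tags, limit what can be seen at these starts.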
